A study of Homo sapiens with 6 samples.

Results

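Ribosomal protein pseudogenes are extra copies of the genes that encode the proteins of the ribosome. A gene name was taken as such a copy when it consisted of RPL or RPS, further letters or digits, a P and a final number, and when its raw read counts summed over the 6 libraries reached 60. The members were thus chosen by their summed counts, and the high level of a member is a description and not a finding. The rule found 16 names among 27 of this pattern and among 23382 gene names in all. Of the 16, 15 are described as pseudogenes in the table, and each was set beside its parent, the gene whose symbol stands before the P, which gave 13 parents. The remaining name, RPS19BP1, fits the pattern by its letters but is a protein-coding gene for a protein that binds RPS19, and it is given apart. The libraries were made from UMUC3, an established human bladder cancer cell line. A group of 3 was labelled negative control and a group of 3 si-CPSF3. The latter names an siRNA against CPSF3, the nuclease that cuts new transcripts before their poly(A) tail is added. The labels used here give no siRNA sequence, dose or time. They number the libraries 1 to 3 and name no separate cultures, and a p-value here covers only the spread among these libraries, which may be technical.

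A processed pseudogene arises when a cell's mRNA is copied back into DNA and inserted at another site, which leaves a copy without introns and usually without a promoter of its own. Genes with abundant and short mRNAs, those of ribosomal proteins first among them, have left very many such copies in the human genome. Because a copy can be almost identical to the mRNA of its parent, a short sequencing read from the parent can match both places, and how such reads were assigned depends on the aligner and the counting tool. Neither tool is given in the sources used here, and neither is the read length or a strand setting, so every value below is a count assigned to a pseudogene and not a measured amount of its transcript, and each member is uncertain in this sense.

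RefSeq's gene table for GRCh38.p14 lists 1989 symbols of ribosomal protein pseudogenes, and 26 of them were names in the counts table. RefSeq gives an RNA accession for 31 of the 1989, and all 26 were among these 31. Of the 1958 symbols without one, 0 were names in the table, so the members come from the small part of the family that RefSeq annotates with a transcript. RPL21 has 137 such symbols, RPL23A has 95, RPL31 has 64 and RPS26 has 59, whereas RPL23 and RPS14 have 10 each. The number of copies in the genome and the number described here differ widely, with 1 copy each for RPL21, RPL31 and RPS26 and 3 for RPL23A.

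The copies with the 3 highest mean counts are printed here beside their parents, to show how few bases separate a copy from the gene it came from. All bases are GENCODE 29 transcript sequence on GRCh38, and each stretch is the gapless run of 120 coding bases with the most differences, so it is less alike than the rest of the pair. Capitals mark the bases that differ. RPS10P7 spans chr1:201520395-201520514 on the plus strand and is set against coding positions 343 to 462 of RPS10, with 11 differences; RPS14P3 spans chr1:19608226-19608345 on the plus strand against positions 113 to 232 of RPS14, with 8; RPL23P8 spans chr7:20827526-20827645 on the plus strand against positions 201 to 320 of RPL23, with 11. Positions count from 1 at the A of the parent's start codon.
RPS10P7: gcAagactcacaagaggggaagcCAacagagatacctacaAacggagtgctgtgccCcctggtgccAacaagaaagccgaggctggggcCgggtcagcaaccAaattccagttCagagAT
RPS10: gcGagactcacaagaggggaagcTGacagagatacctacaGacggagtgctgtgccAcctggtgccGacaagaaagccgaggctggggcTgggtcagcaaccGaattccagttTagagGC
RPS14P3: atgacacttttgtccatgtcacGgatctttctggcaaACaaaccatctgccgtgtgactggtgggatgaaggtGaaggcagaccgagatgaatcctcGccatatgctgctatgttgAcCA
RPS14: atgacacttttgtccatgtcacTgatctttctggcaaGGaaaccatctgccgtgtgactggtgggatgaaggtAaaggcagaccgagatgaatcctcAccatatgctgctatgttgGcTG
RPL23P8: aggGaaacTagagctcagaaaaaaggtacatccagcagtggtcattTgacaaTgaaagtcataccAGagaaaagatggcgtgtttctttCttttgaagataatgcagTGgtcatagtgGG
RPL23: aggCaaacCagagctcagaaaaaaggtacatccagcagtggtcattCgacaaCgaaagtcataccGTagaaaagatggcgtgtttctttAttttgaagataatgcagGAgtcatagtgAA
Over the whole coding sequence RPS10P7 was 95.5% identical to RPS10, RPS14P3 was 95.6% identical to RPS14 and RPL23P8 was 94.1% identical to RPL23. A stretch of 50 bases of RPS10P7 was found unchanged in a parent mRNA at 12.1% of its positions. That share was 3.20% for RPS14P3 and 16.4% for RPL23P8.

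Across the 15 pseudogenes the identity to the parent's coding sequence ran from 87.9% for RPS15AP10 to 99.4% for RPL21P28, with a median of 94.3%. RPL21P28 differed from RPL21 at 3 aligned bases, the changes G6A, T134C and C294T, with the parent's base first, and RPS26P11 differed from RPS26 at 8. These are the closest copies, and 75.6% of the 50-base stretches of RPL21P28 and 34.8% of those of RPS26P11 also stood in the parent mRNA, against a median of 0.714% over the 15. GENCODE 29 classes 13 of the 15 as processed pseudogenes. It classes RPL32P3 and RPL23AP82 as unprocessed, the kind made by duplication of DNA, so the label processed does not hold for all members in that annotation. RPL23AP82 nevertheless has 1 exon where the RPL23A transcript has 5, and is 98.1% identical to RPL23AP7, which is classed as processed. How RPL23AP82 arose was not tested. In GENCODE RPL32P3 is the only member with more than 1 exon, with 2, and only 61.5% of the coding sequence of RPL32 aligned to it. The RefSeq locus of RPL32P3 spans 16606 bases, where the GENCODE sequence used here has 275. The spans also differ for RPLP0P2 (24414 against 961), RPL23AP82 (42552 against 469), RPL23AP53 (23975 against 457) and RPL23AP7 (15900 against 469). Smaller differences hold for the other members, for example RPL31P11 (1558 against 372), RPS18P9 (987 against 460), RPS15AP10 (914 against 382) and RPS14P3 (838 against 455). Which unit was counted is not given. For all members the identity and the 50-base shares may describe only part of it. GENCODE types 9 of the 15 as transcribed, and 13 of the 15 lie on another chromosome than their parent.

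The copies differed in how long a reading frame they held. A start codon in place of the parent's was found in 12 of the 15. In the rest none was found, which can also mean that the alignment did not reach that end. The reading frame from that codon ran without a stop over at least as many codons as the parent has in 4, namely RPS14P3, RPLP0P2, RPS26P11 and RPL21P28. Of these only RPS26P11 and RPL21P28 aligned without a gap. RPS14P3 aligned 455 bases with 1 gap to a coding sequence of 456, so its frame shifts there, and it met no stop before its sequence ended. RPLP0P2 aligned with 2 gaps, so its open frame need not be the parent's throughout. In 5 copies the frame met a stop before the midpoint, for example after 72 of 165 codons in RPS10P7 and after 20 of 152 in RPS18P9. The 15 copies held 449 base substitutions relative to their parents, and 318 of them, or 70.8%, were transitions, changes between A and G or between C and T. Bases that belong to a CG pair in the parent, a site that is often methylated and then mutates easily, were changed at 103 of 517 positions, or 19.9%, while the other bases were changed at 346 of 6803, or 5.09%. The changed share was higher at CG pairs in all 15 copies, among them 26.3% against 2.63% in RPS10P7. These sums are descriptions, because RPL23AP82, RPL23AP7 and RPL23AP53 share a parent and are 95.8% to 98.1% identical to each other.

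Each library held between 4145385 and 4378899 counts over all gene names. The 79 genes of the cytosolic ribosomal proteins took up 43.4% ± 2.5 of these counts in the control group and 44.3% ± 1.1 under the si-CPSF3 label (SD, n = 3 each). CPSF3 had 20, 50 and 36 counts in control libraries 1 to 3 and 56, 38 and 66 in those labelled si-CPSF3. Its level was thus not lower under the siRNA label (log2 fold change 0.67, SE 0.32, edgeR adjusted p = 0.329), so a knockdown of CPSF3 was not seen in its counts, and directions are given for the libraries as labelled. Of 7 markers listed for these cells, the keratins KRT8 and KRT18, the adhesion receptor CD44 and VIM, the mesenchymal filament protein vimentin, had at least 100 counts in every library. KRT7 had 9 to 25 counts, and the epithelial markers KRT19 and EPCAM had 0 in all 6. The 7 summed to 2450 to 3041 counts in the control group and 2103 to 2423 in the other. Of the markers listed for other cell types, PTPRC, CD3E, MS4A1, VWF, HBB and DCN were not names in the table. Among the 4 that were, CD68 led, with 100 to 123 counts in the control group and 54 to 63 in the other. The sums of the 4 were 104 to 124 and 60 to 67. Neither sum of raw counts overlapped between the groups. By scaled counts, 21.2% of all genes tested had groups that did not overlap. The raw counts of KRT8 and VIM overlapped, while those of KRT7, KRT18 and CD44 did not. The part of these markers in the results was not tested. In bulk RNA, fewer cells of a kind and less RNA per cell cannot be told apart.

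The 15 pseudogenes together received 6.10% ± 0.64 of all counts in the control libraries and 6.94% ± 0.52 in those labelled si-CPSF3 (SD, n = 3 each). The control libraries held 5.48%, 6.05% and 6.77% and the others 7.47%, 6.91% and 6.43%, so the groups overlapped. The deposited FPKM are by name scaled to gene length and library size, but their scaling also varied between libraries, as the pairs below show. By summed FPKM the shares were 6.91%, 7.64% and 9.05% and then 9.94%, 9.29% and 9.79%, and here the groups did not overlap. The difference between the group means was 0.834 percentage points by counts and 1.80 by FPKM. The 13 parents together received by counts 7.20% ± 0.93 and 7.91% ± 0.12. The 2 sums are near each other, but single pairs differed widely. They ran from up to 528 counts of RPL23P8 per count of RPL23 to up to 11234 counts of RPL31 per count of RPL31P11. RPS10P7, RPS14P3 and RPL23P8 alone made up 95.4% ± 0.8 of the counts of the 15 in the control group and 96.2% ± 0.3 in the other. Among all 23382 names RPL23P8 ranked 7, RPS10P7 8 and RPS14P3 13 by mean FPKM, and the mean FPKM of RPS10P7 was 50368 against a median of 2598 over the 79 ribosomal protein genes.

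**Figure D1:**
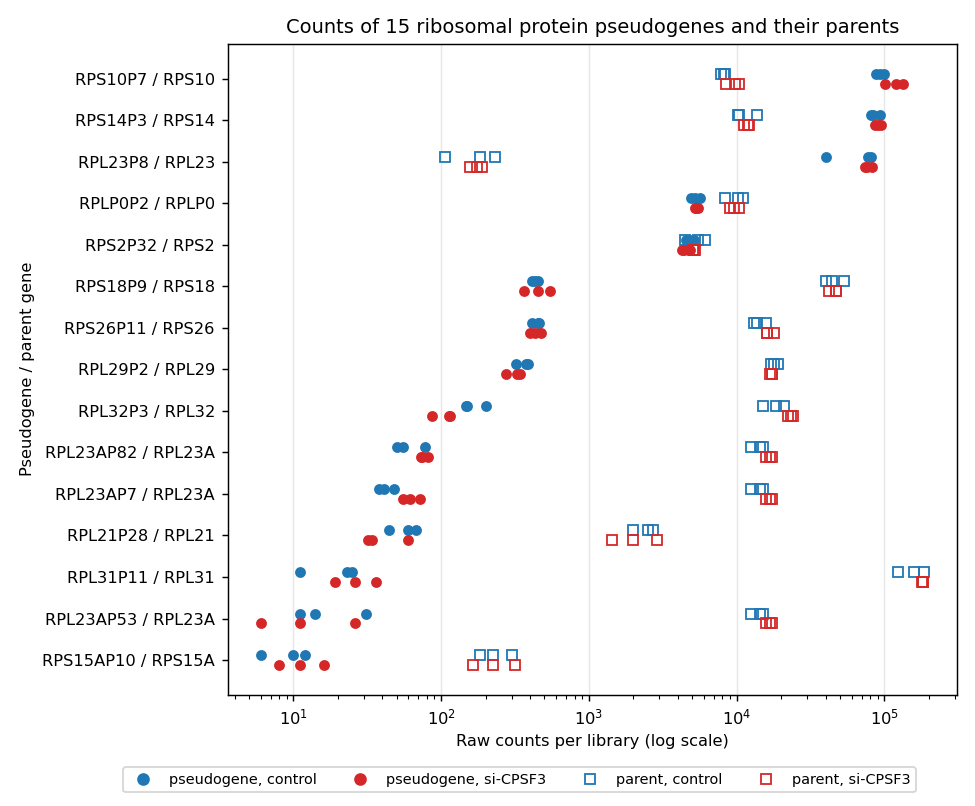
Raw counts per library on a log scale for each of the 15 pseudogenes (filled circles) and its parent (open squares), with the 3 control libraries in blue and the 3 labelled si-CPSF3 in red. RPS10P7, RPS14P3 and RPL23P8 lie to the right of their parents in all 6 libraries, RPS2P32 lies on top of RPS2, and the other 11 lie to the left of theirs.

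In 3 of the 15 pairs the pseudogene held more counts than its parent in every library, in 11 the parent held more in every library, and in the pair of RPS2P32 and RPS2 the order changed between libraries. The same 3 pseudogenes exceeded their parents in every library by the deposited FPKM. With a fixed length per gene, the FPKM and count ratios of a pair would differ by the same factor in every library. They did not, since RPS10P7 over RPS10 was 11.3 to 12.9 by counts and 5.92 to 14.2 by FPKM. The FPKM thus carry a further factor that is not given. The plot of counts by library shows the split of 3 and 11 pairs, and the identity to the parent did not order it. The most identical copies, RPL21P28 and RPS26P11, had 33.2 to 61.3 and 29.4 to 41.6 parent counts per pseudogene count, whereas RPL23P8 at 94.1% identity outnumbered its parent.

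**Figure D2:**
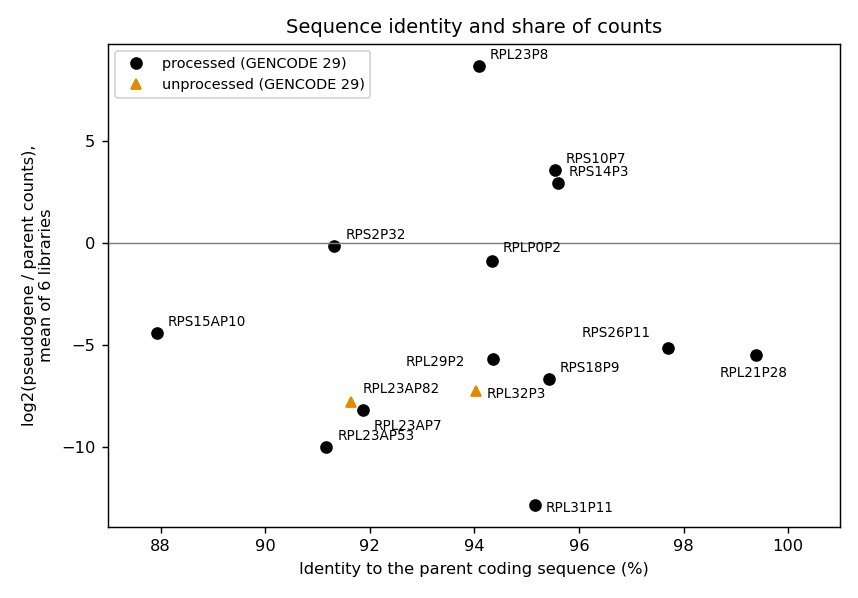
Identity of each pseudogene to the coding sequence of its parent (horizontal axis, percent) against the log2 ratio of pseudogene to parent counts, as the mean of 6 libraries (vertical axis), with the 2 copies that GENCODE 29 classes as unprocessed as triangles. RPL23P8, RPS10P7 and RPS14P3 stand above the line of equal counts at 94.1% to 95.6% identity, while RPL21P28 at 99.4% stands well below it.

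None of the 15 pseudogenes passed the test between the groups in edgeR's quasi-likelihood test at an adjusted p of 0.05, which called 247 of 11069 genes, or 2.23%, with 0.723% higher and 1.51% lower under the si-CPSF3 label. Of the 15, 2 had an unadjusted p under 0.05, against 15.4% of all genes tested. DESeq2 called 0 of the 13 to which it gave an adjusted p, with 3 of the 15 under an unadjusted 0.05, and limma-voom called 0 with 2 under it. The fitted log2 fold change, libraries labelled si-CPSF3 over control, was above 0 for 10 and below 0 for 5, with a median of 0.13 against -0.01 over all genes. Groups that did not overlap were seen for 1 higher and 1 lower pseudogene, against 9.82% of all genes higher, 11.4% lower and 21.2% in either direction. Of the 13 parents 0 passed and 0 had an unadjusted p under 0.05, the median was 0.05, and only RPS26 had groups that did not overlap. Of the 79 ribosomal protein genes 0 passed, 3 had an unadjusted p under 0.05 and the median was 0.12.

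**Figure D3:**
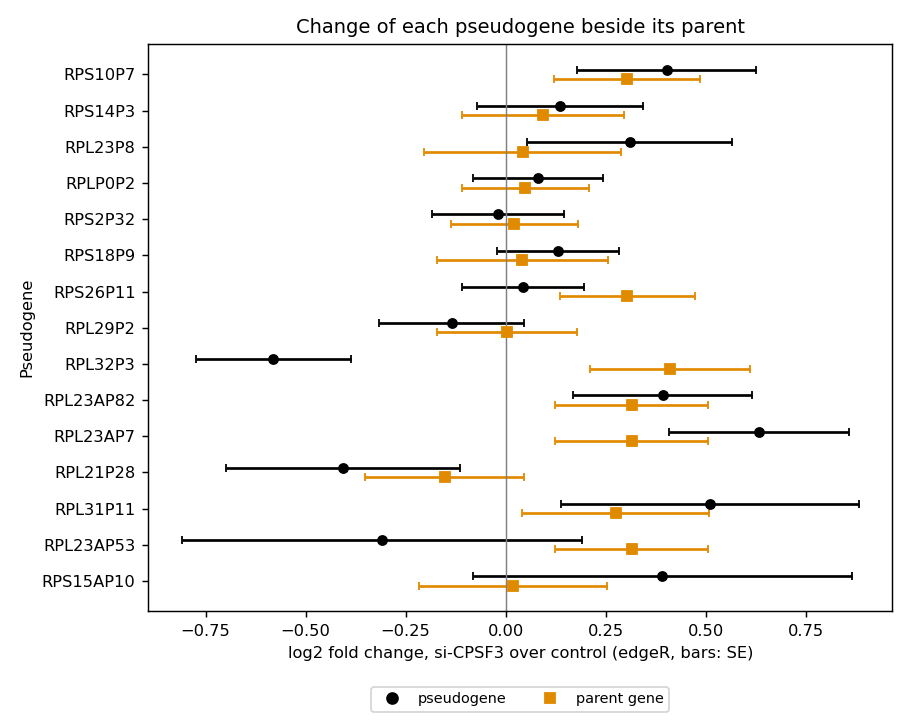
Log2 fold change of each pseudogene (black circles) and of its parent (orange squares), libraries labelled si-CPSF3 over control, fitted with edgeR on 3 libraries per group; bars are the standard error. RPL32P3 at -0.58 stands apart from RPL32 at 0.41, while RPS10P7 at 0.40 lies close to RPS10 at 0.30.

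RPS10 is a protein of the small ribosomal subunit, mutated in some patients with Diamond-Blackfan anaemia. Its copy RPS10P7 lies on chromosome 1 at 201520056 to 201520549, within an intron of the antisense RNA AC096677.1. RPS10P7 had 93669, 87865 and 99673 counts in the control libraries and 133544, 119300 and 100111 in those labelled si-CPSF3. The raw counts of all 3 libraries labelled si-CPSF3 were above the controls, library 3 barely so, and the groups overlapped once scaled. The level was 21803 ± 3853 CPM, counts scaled to a library of fixed size with TMM factors, against 28809 ± 6630 (SD, n = 3 each), a log2 fold change of 0.40 with SE 0.22 and an edgeR adjusted p of 0.430. RPS10 had 8219, 7786 and 8393 counts and then 10371, 9729 and 8516, with a log2 fold change of 0.30 and an adjusted p of 0.476. The copy held 11.3 to 12.9 counts for each count of RPS10 in every library, and the log2 ratio was 3.53 ± 0.04 in the control group and 3.62 ± 0.07 in the other (exact permutation p = 0.2, n = 3 each). By FPKM the ratio was 5.92 to 14.2.

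RPS14 sits on the platform of the small subunit and is known from a form of myelodysplastic syndrome in which 1 copy of the gene is lost. RPS14P3 lies on chromosome 1 at 19608114 to 19608568, in introns of NBL1 and MINOS1 on the same strand, and GENCODE 29 holds it without that name, so it was matched by its RefSeq position. It had 80945, 83856 and 94027 counts in the control libraries and 90862, 95366 and 85970 in those labelled si-CPSF3, and the groups overlapped. The log2 fold change was 0.14, SE 0.21, with an edgeR adjusted p of 0.822. RPS14 had 10197, 10342 and 13788 counts and then 11871, 12149 and 11270, a log2 fold change of 0.09. RPS14P3 held 6.82 to 8.11 counts per count of RPS14, and 15.2 to 33.7 times its FPKM.

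RPS2 is a small-subunit protein near the site where mRNA enters the ribosome. RPS2P32, on chromosome 7 at 23490473 to 23491364, is 91.3% identical to it over the 853 of 882 coding bases that aligned. No start codon was found in place of the parent's, and the alignment may not have reached that end. No stretch of 50 bases of its GENCODE sequence stood unchanged in a parent mRNA. RPS2P32 had 5159, 4803 and 4536 counts in the control libraries and 4847, 4412 and 4278 in those labelled si-CPSF3. RPS2 had 6102, 5504 and 4437 and then 5119, 5060 and 5206, so the copy and its parent were at nearly the same count. The copy's share of the pair was 47.7% ± 2.5 and 46.8% ± 1.8 (SD, n = 3 each). The log2 fold change of RPS2P32 was -0.02, SE 0.16, and under upper-quartile scaling it was 0.013.

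RPS18 lies in the head of the small subunit and RPS26 lines the channel where mRNA leaves it. RPS18P9, on chromosome 6 at 149594084 to 149594543, had 410, 453 and 430 counts in the control libraries and 365, 450 and 546 in those labelled si-CPSF3, with a log2 fold change of 0.13 and an edgeR adjusted p of 0.750. The largest and the smallest of the 6 counts both stood in libraries labelled si-CPSF3. RPS18 had 40316 to 52924 counts, or 76.7 to 129 for each count of the copy. RPS26P11, on chromosome X at 72044545 to 72044892 in an intron of NHSL2, had 456, 411 and 449 and then 396, 471 and 433, a log2 fold change of 0.04. Its parent RPS26 had 15716, 13732 and 13178 counts and then 16075, 16075 and 18003, and here every scaled value under the si-CPSF3 label was above every control value (log2 fold change 0.30, SE 0.17, edgeR adjusted p = 0.428). The log2 ratio of RPS26P11 to RPS26 was -5.01 ± 0.12 and -5.27 ± 0.16, and its groups overlapped (exact permutation p = 0.2, n = 3 each).

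RPS15A, another protein of the small subunit, had itself a low level here, with 183 to 300 counts in the control group and 164 to 314 in the other, and ranked 76 of the 79 ribosomal protein genes by FPKM. RPS15AP10, on chromosome 1 at 45645816 to 45646197 in an intron of GPBP1L1, had 12, 10 and 6 counts and then 8, 16 and 11. Its total of 63 was the lowest that met the minimum of 60, followed by 99 for RPL23AP53 and 140 for RPL31P11. Just under the minimum were RPL13AP20 with 39, RPL23AP32 with 38 and RPL13P5 with 24. RPS15AP10 is the least alike of the 15 copies, at 87.9%, and its log2 fold change of 0.39 had an SE of 0.47.

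RPLP0 forms the base of the stalk on which the ribosome receives its elongation factors. RPLP0P2, on chromosome 11 at 61636680 to 61637640, is 94.3% identical to it, with 2 gaps, and holds a frame of 318 codons without a stop where the parent has 317. It had 5663, 4939 and 5248 counts in the control libraries and 5230, 5441 and 5332 in those labelled si-CPSF3. RPLP0 had 11043, 10165 and 8344 and then 9061, 9636 and 10290. The copy's share of the pair was 35.1% ± 3.1 and 35.6% ± 1.3 (SD, n = 3 each), and neither gene moved beyond its spread, with log2 fold changes of 0.08 and 0.05. With library totals in place of TMM these became -0.011 and -0.051. By FPKM RPLP0 stood 4.20 to 8.82 times above the copy.

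RPL23, a large-subunit protein that can also bind MDM2 and so restrain its action on p53, was the parent most outnumbered by its copy. RPL23P8 lies on chromosome 7 at 20827326 to 20827753. RPL23P8 had 40316, 80786 and 76803 counts in the control libraries and 82850, 76403 and 74262 in those labelled si-CPSF3. RPL23 had 106, 184 and 232 and then 157, 188 and 175. Control library 1 was the lowest for both, and the other 5 values of RPL23P8 lay close together. RPL23 ranked 78 of the 79 ribosomal protein genes by mean FPKM, at 17.0, where RPL23P8 had 50536 and stood above 75 of the 79. There were 331 to 528 counts of the copy for each count of RPL23. The log2 fold change of RPL23P8 was 0.31, SE 0.26, with an edgeR adjusted p of 0.625, and without control library 1 it was 0.04. For RPL23 the value was 0.04 and became -0.23 without that library.

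RPL32, a protein of the large subunit, and its copy RPL32P3 were the pair whose log2 fold changes between the groups lay farthest apart. In GENCODE RPL32P3 lies on chromosome 3 between 129396218 and 129397109 on the minus strand, in 2 exons. No 50-base stretch of that sequence stood unchanged in a parent mRNA. RPL32P3 had 147, 201 and 150 counts in the control libraries and 115, 112 and 86 in those labelled si-CPSF3. Every value under the si-CPSF3 label was below every control value, at 38.0 ± 4.4 CPM against 25.5 ± 5.7 (SD, n = 3 each). The log2 fold change was -0.58, SE 0.19, with an unadjusted p of 0.00878 and an edgeR adjusted p of 0.145, so it did not pass. RPL32 had 15027, 18405 and 20926 counts and then 23277, 22133 and 23974, at a log2 fold change of 0.41, SE 0.20, with an adjusted p of 0.347. Its groups overlapped once scaled.

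The log2 ratio of RPL32P3 to RPL32, which does not depend on library scaling, was -6.77 ± 0.31 in the control libraries and -7.80 ± 0.28 in those labelled si-CPSF3, a difference of -1.03. It was the only 1 of the 15 pairs whose ratio did not overlap between the groups. The two-sided exact permutation p was 0.1, the smallest that 3 against 3 libraries allow, and 0.75 when adjusted over the 15 pairs. Without any difference between the groups a ratio fails to overlap with that same probability of 0.1, and 1 of 15 pairs is not above it. The pair was named for its large difference, so the values that follow only describe it. Leaving out 1 library at a time gave differences from -1.20 to -0.87, and the FPKM ratio gave -1.20. Over the 15 pairs the median difference was 0.04.

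RPL23A lies near the exit of the tunnel through which the new protein leaves the large subunit, and 3 members are its copies. RPL23AP7, on chromosome 2 at 113611779 to 113612247, had 48, 41 and 38 counts in the control libraries and 55, 61 and 72 in those labelled si-CPSF3. All 3 of the latter were above all controls, at 15.1 ± 1.08 CPM against 9.76 ± 1.16 (SD, n = 3 each). The log2 fold change was 0.63, SE 0.23, with an unadjusted p of 0.0132 and an edgeR adjusted p of 0.180, so it did not pass. RPL23AP82, on chromosome 22 at 50798655 to 50799123, had 78, 55 and 50 counts and then 74, 81 and 73, a log2 fold change of 0.39 with an adjusted p of 0.441. These copies are 98.1% identical to each other, so they are not independent observations. RPL23AP53 had 11, 31 and 14 counts and then 6, 11 and 26, with a log2 fold change of -0.31 and an SE of 0.50. RPL23A itself had 14433, 12463 and 15014 counts and then 17382, 15675 and 16821, with a log2 fold change of 0.31 and an adjusted p of 0.477. The log2 ratio of RPL23AP7 to RPL23A overlapped between the groups, at -8.35 ± 0.22 and -8.05 ± 0.22 (exact permutation p = 0.3, n = 3 each).

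**Figure D4:**
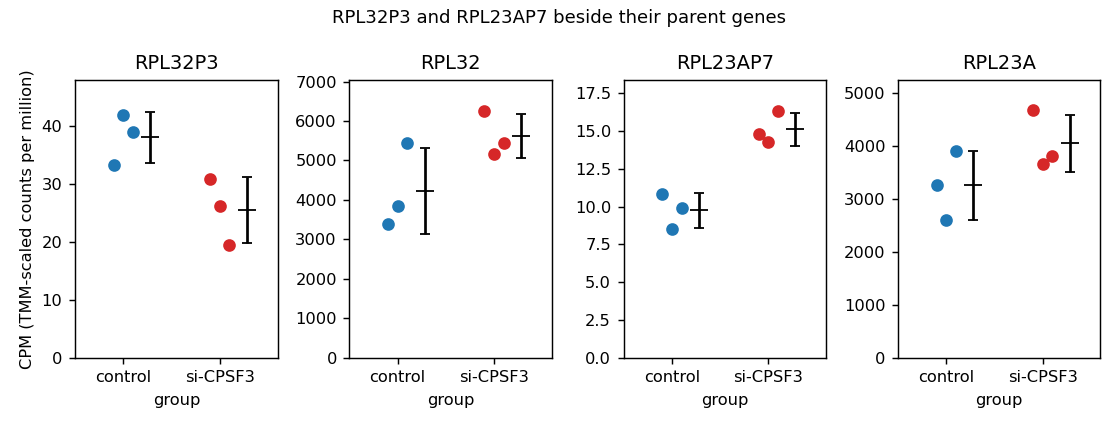
CPM scaled with TMM factors for RPL32P3, RPL32, RPL23AP7 and RPL23A in each library, control in blue and labelled si-CPSF3 in red; the black mark and bar are the mean and SD of 3 libraries, and each panel has its own axis from 0. RPL32P3 goes from a mean of 38.0 to 25.5 while RPL32 goes from 4225 to 5619, and RPL23AP7 goes from 9.76 to 15.1.

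RPL29, RPL21 and RPL31 are further proteins of the large subunit, and their copies had few counts beside them. RPL29P2, on chromosome 17 at 7754394 to 7754853 in an intron of DNAH2, had 377, 322 and 385 counts and then 340, 326 and 275, with a log2 fold change of -0.14 and an edgeR adjusted p of 0.791. RPL21P28, the most alike of all copies, lies on chromosome 1 at 212051524 to 212052006 in an intron of DTL, on the opposite strand. It had 60, 44 and 68 counts and then 32, 34 and 60, and library 3 of the si-CPSF3 label stood among the controls (log2 fold change -0.41, SE 0.29, adjusted p = 0.561). RPL21 had 1993, 2696 and 2529 and then 1432, 1974 and 2894, a log2 fold change of -0.15. RPL31P11, on chromosome 1 at 161684838 to 161685209, had 11, 25 and 23 counts and then 19, 26 and 36, while RPL31 had 123573 to 186025 and was the ribosomal protein gene at rank 3 by FPKM. There were 4969 to 11234 counts of RPL31 for each count of its copy, the widest gap of any pair in this direction.

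Each parent was also summed with its pseudogenes in the table, so that a read counted for either of them stands in the same sum. Reads that were not counted, or were counted elsewhere, are not in these sums. Of the 13 sums, 0 passed edgeR's test, against 2.23% of the 11054 units tested, and the smallest adjusted p was 0.354 for RPL32. The pseudogenes held 99.8% of the counts of the RPL23 sum, 92.3% of RPS10, 88.4% of RPS14, 47.1% of RPS2 and 35.2% of RPLP0. In the other 8 sums they held 4.28% or less. With its copy included RPL23 stood at 15350 ± 5616 CPM in the control group and 19021 ± 2874 in the other (SD, n = 3 each), where RPL23 alone had 40.9 ± 18.3 and 41.9 ± 2.1.

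RPS19BP1, the protein-coding gene whose name fits the pattern, had 210, 182 and 133 counts in the control libraries and 220, 256 and 271 in those labelled si-CPSF3. All 3 of the latter were above all controls, at 60.1 ± 1.2 CPM against 40.0 ± 6.7 (SD, n = 3 each). The log2 fold change was 0.59, SE 0.16, with an unadjusted p of 0.00231 and an edgeR adjusted p of 0.0721, so it did not pass.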

How the data were processed

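Per the labels' protocols, RNA purified on columns went into SMARTer mRNA libraries. The submitters' processing notes name the build hg38. Not given in the sources used here are the aligner, counting tool, strand setting and annotation. The authors deposited raw read counts per gene, which are whole numbers without normalisation, and FPKM values, used here for levels between genes and as an alternative. FPKM is by name scaled to length and library size. Its ratio to the counts of a gene also varied between libraries beyond library size, in a way not given. Of names on several rows, the highest mean was kept. The columns were read by the library names in the labels.

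Counts of the whole table were tested with edgeR 4.0.16 (R 4.3.3; quasi-likelihood, TMM factors, default filter, group as the only term), adjusted over 11069 genes by Benjamini-Hochberg at 0.05, after a test on simulated data. The SE of a log2 fold change is its size over the root of F. Ratios of pseudogene to parent used counts plus 0.5 and a two-sided exact permutation test. Sequences came from GENCODE 29 transcripts on GRCh38, aligned locally with Biopython 1.88 to the principal coding sequence of the parent. All 15 pseudogenes were matched, 14 by name. Replicates were compared by a chi-square test, and with 5.91 to 14.2 per degree of freedom none agreed within sampling noise. Counting intervals are not given, since the standard errors include the spread between libraries.

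The members, gene lists and tests were chosen with earlier results of these data known. Named members were those with the highest mean CPM, the smallest p, the largest difference from the parent or a total next to the minimum, which covered all 15. Alternatives were other scalings (DESeq2 size factors, upper-quartile factors, library totals), filters and count minimums, DESeq2 1.42.0, limma-voom (limma 3.58.1), leaving out each library, a block for the replicate number, limma on log2(FPKM + 1) and log2(FPKM + 0.1), summed rows and a pseudocount of 5.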

Additional observations from a re-analysis of the deposited data

How the results depend on the processing

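Under all 17 alternatives of the test 0 pseudogenes and 0 parents passed, and with a minimum of 30 or 120 counts 0 pseudogenes passed, while the number of genes called over the whole table ranged from 31 with log2(FPKM + 0.1) to 547 without a filter. The counts were 241 with DESeq2, 208 with limma-voom, 190 with library totals and 41 with log2(FPKM + 1). Of 252 pseudogene values 14 took the other sign, as did 27 of 221 parent values; the cause was not tested. With upper-quartile factors RPS2P32 became 0.013. With library totals RPLP0P2 became -0.011, RPS26P11 -0.043, RPL23 -0.028, RPL29 -0.091, RPLP0 -0.051, RPS15A -0.032, RPS18 -0.043 and RPS2 -0.083. With either FPKM pseudocount RPS14P3 became -0.044, RPL29 -0.021, RPLP0 -0.14 and RPS2 -0.17. With 1 library left out in turn the log2 fold change ranged from -0.13 to 0.067 for RPS2P32, -0.030 to 0.19 for RPLP0P2, -0.068 to 0.17 for RPS26P11, -0.99 to 0.16 for RPL23AP53 and -0.28 to 0.029 for RPL29P2. Among parents it ranged from -0.23 to 0.45 for RPL23, -0.042 to 0.38 for RPS14, -0.19 to 0.36 for RPS15A, -0.11 to 0.29 for RPS18, -0.095 to 0.11 for RPL29, -0.031 to 0.11 for RPS2 and -0.39 to 0.027 for RPL21. The difference in the share of the pseudogenes, 0.834 percentage points by counts, was 1.80 by summed FPKM and 0.526 to 1.17 with 1 library left out. The median difference of the pair ratios ranged from -0.057 to 0.068 in that way. The replicate numbers did not pair the libraries, since deviations of same-numbered libraries correlated at 0.053, 0.077 and -0.049, and with the replicate block 0 pseudogenes and 147 genes passed. Members below about 100 counts in all are limited by depth, and shared reads by the unknown counting method.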

Other observations

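The listed ribosomal protein paralogs, functional relatives of ribosomal protein genes, had 6 of 8 members in the table. Of these, 0 were higher and 1 was lower at an edgeR adjusted p of 0.05, against 0.723% higher and 1.51% lower over all genes tested, and 2 of the 6 had an unadjusted p under 0.05 against 15.4%. Their median log2 fold change was -0.08. Groups that did not overlap were seen for 1 higher and 1 lower member, against 21.2% of all genes in either direction. The genes named here were chosen after their values were seen. RPL22L1, the paralog of RPL22, fell from 135, 250 and 102 counts in the control libraries to 62, 66 and 98 in those labelled si-CPSF3, with a log2 fold change of -1.01, SE 0.25, and an adjusted p of 0.0474. Its groups did not overlap once scaled. This call was lost with most alternatives, with an adjusted p of 0.0518 under DESeq2 size factors, 0.0683 with limma-voom and 0.111 with the replicate block. It was also lost without control library 1 (0.0741), control library 2 (0.174), or library 1 (0.171) or 2 (0.175) labelled si-CPSF3. Alternatives that kept the call included DESeq2's own test (0.0249), no filter (0.000285), a stricter filter (0.0454) and leaving out control library 3 (0.0298). RPL36AL had 1225, 1267 and 1245 counts and then 1603, 1560 and 1862, with a log2 fold change of 0.49 and an adjusted p of 0.101 in edgeR and 0.0152 in DESeq2.

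Pseudogenes of 30 other abundant genes met the same minimum in 3 cases. In edgeR 0 of the 3 passed, against 2.23% of all genes tested, and 1 had an unadjusted p under 0.05, against 15.4%. Non-overlapping groups were seen for 0 higher and 1 lower, against 21.2% of all genes in either direction. That 1, ACTG1P17, was named after its values were seen. ACTG1P17, a copy of the gene for cytoplasmic gamma-actin, had 413, 388 and 378 counts in the control libraries and 273, 271 and 272 in those labelled si-CPSF3. Its groups did not overlap, at 90.8 ± 9.0 CPM against 66.1 ± 6.3 (SD, n = 3 each), a log2 fold change of -0.46 with an edgeR adjusted p of 0.138. ACTG1P20, another copy of the gamma-actin gene, had 7, 9 and 12 counts and then 12, 13 and 9. Its groups overlapped, at a log2 fold change of 0.34 with SE 0.48. FTH1P3, a copy of the ferritin heavy chain gene, had 458, 541 and 503 counts and then 453, 465 and 513.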
